A study of Homo sapiens with 9 samples.

Results

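The 9 genes of this report encode the enzymes that write and erase DNA methylation in human cells: DNMT1, DNMT3A, DNMT3B, DNMT3L, UHRF1, TET1, TET2, TET3 and TDG. They were chosen by gene name from a table of 60829 rows, each name matched 1 row, and all 9 passed the filter on low counts that left 27777 rows for testing. Total RNA depleted of ribosomal RNA was sequenced from 2 clones of H1, an established human embryonic stem cell line. The chrX-KO clone carries a knockout on chromosome X of an element named HERVHlin and gave 5 libraries, and the chrX-ctrl clone, with the genotype label WT, gave 4. Each group is a single clone sampled at successive passages. The sample titles name them biological replicates, but the design text handles them as technical ones. The p-values below therefore measure the spread between passages, and a difference between the clones cannot be told apart from an effect of the knockout. In bulk RNA, fewer cells of a type and less RNA per cell cannot be told apart either. The cells were grown in mTESR medium on vitronectin, while a treatment label calls them differentiated. The 10 markers of embryonic stem cells summed to 34454 to 51265 normalized counts in chrX-KO libraries and 38262 to 78248 in chrX-ctrl libraries. Markers of mesendoderm, mesoderm and endoderm summed to 11.1 to 28.7 in chrX-KO and 21.7 to 47.8 in chrX-ctrl libraries. Among them SOX17 and FOXA2 had 0 reads in every chrX-KO library and at most 1 in any chrX-ctrl library. Other lineage lists summed higher. Neural ectoderm markers summed to 1293 to 1801 in chrX-KO and 1375 to 3389 in chrX-ctrl libraries. Fibroblast markers summed to 881 to 1348 in chrX-KO and 967 to 1603 in chrX-ctrl. Trophectoderm and amnion markers summed to 137 to 235 in chrX-KO and 165 to 383 in chrX-ctrl.

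DNA methylation is the addition of a methyl group to cytosine, mostly where a guanine follows. DNMT3A and DNMT3B lay down new marks, DNMT3L assists them without catalytic activity of its own, and DNMT1 copies marks to the new strand after replication, guided by UHRF1, which binds half-methylated DNA. TET1, TET2 and TET3 oxidise the methyl group, and the glycosylase TDG cuts out the oxidised bases so that repair can restore a plain cytosine. Human embryonic stem cells in the primed state are known for high DNMT3B and TET1, and DNA methylation silences many endogenous retroviruses and germline genes.

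Library depth was 21434888 to 31192630 recovered reads in chrX-KO and 19838682 to 30388797 in chrX-ctrl, and the 9 genes took between 0.0186% and 0.0501% of a library's reads. Libraries also differed in make-up. Protein-coding rows took 26.3% of reads in chrX-KO replicate 1, 27.5% in chrX-ctrl replicate 2 and up to 50.8% in chrX-ctrl replicate 3. The 10 rows with the most reads took 27.4% to 51.3%. By the median shift of protein-coding genes from their own averages, chrX-ctrl replicate 3 stood apart at 0.44 (log2), against -0.22 to 0.13 in the others. Values are normalized counts, the authors' gene counts divided by a size factor per library. The knockout was read from 3 rows that the authors mark. Of these, gene.human_00015544 had 25.9, 58.6, 65.2, 65.0 and 73.0 normalized counts in chrX-KO replicates 1 to 5, against 3428, 2119, 3935 and 1316 in chrX-ctrl replicates 1 to 4. The row gene.human_00001528 averaged 116 ± 35.9 in chrX-KO (SD, n = 5) and 698 ± 299 in chrX-ctrl (SD, n = 4), while the third averaged 1452 ± 307 in chrX-KO and 2403 ± 841 in chrX-ctrl and did not pass (limma adjusted p = 0.44).

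None of the 9 genes passed an adjusted p of 0.05 in limma, where 0.54% of the tested rows did (0.425% lower in chrX-KO), so no member is called higher or lower in the knockout clone. A share of 0.54% gives less than 1 gene in 9. EdgeR, DESeq2 and the authors' deposited table also called 0 of the 9, against 0.544%, 2.13% and 2.05% of their tested rows. With the replicate number as a block, limma called 0 of the 9 and 0.155% of rows. At an unadjusted limma p under 0.05 the count was 1 of 9, TET2, against 8.63% of all rows. The libraries of the clones overlapped for each of the 9 genes, and were apart for 3.95% of all rows. The intervals still bound the size of a difference, and they are widest for DNMT3L and UHRF1 and narrowest for TET1 and DNMT3A.

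**Figure D1:**
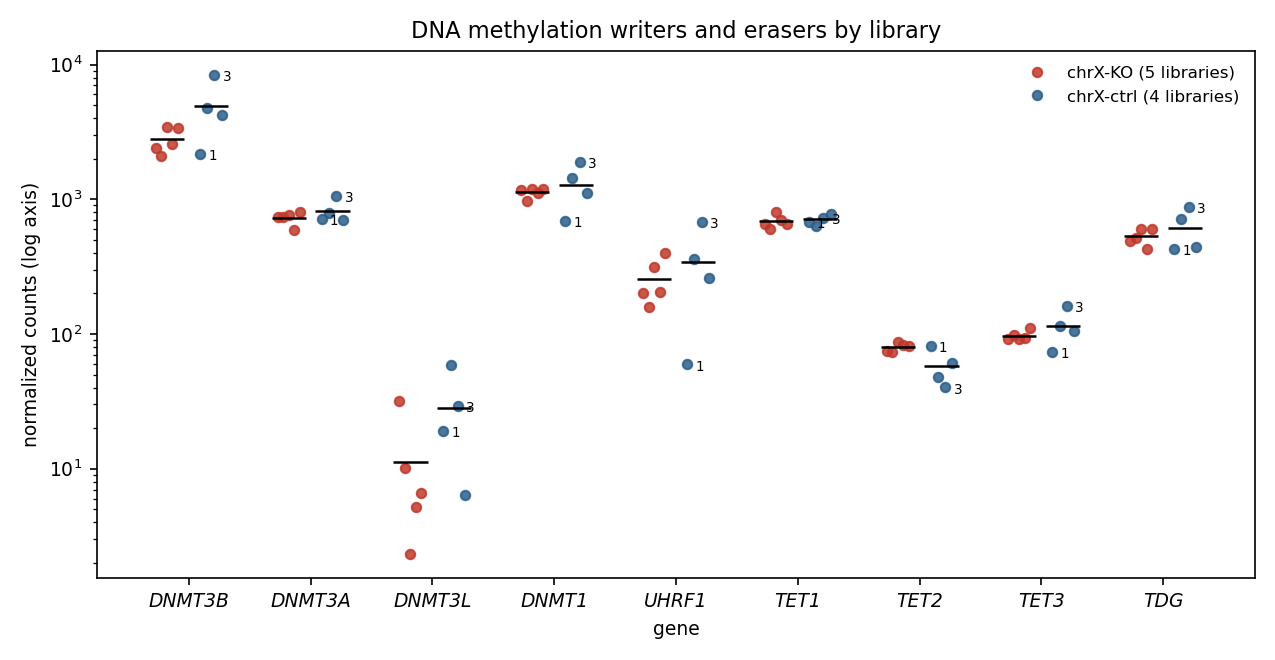
Normalized counts (log axis) of the 9 genes, 1 point per library, with chrX-KO in red and chrX-ctrl in blue and a bar at each mean. The points numbered 1 and 3 are chrX-ctrl replicates 1 and 3, which lie at opposite ends of the control range for UHRF1 (59.5 and 677), DNMT1 (689 and 1884) and DNMT3B (2164 and 8415).

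Promoter sequences are shown for DNMT1 and UHRF1, the maintenance pair, and for TET2, the 1 member with a higher mean in chrX-KO. RefSeq promoter windows of 300 bases (250 before a transcript start and 50 after it, GRCh38.p14) were found for 8 of the 9 genes, 19 windows in all. Each was searched on both strands for TTTNNCGC, a loosened form of the site of E2F factors, which drive genes at the entry into DNA replication; no other motif was searched. The motif stood in 6.89% of 35116 promoter windows, and in 3 of the 19 windows here, 1 of DNMT1 and 2 of UHRF1. Capitals mark the matches in the 4 windows below, each written 5′ to 3′ on the gene's own strand.
DNMT1, chr19:10194904-10195203, minus strand: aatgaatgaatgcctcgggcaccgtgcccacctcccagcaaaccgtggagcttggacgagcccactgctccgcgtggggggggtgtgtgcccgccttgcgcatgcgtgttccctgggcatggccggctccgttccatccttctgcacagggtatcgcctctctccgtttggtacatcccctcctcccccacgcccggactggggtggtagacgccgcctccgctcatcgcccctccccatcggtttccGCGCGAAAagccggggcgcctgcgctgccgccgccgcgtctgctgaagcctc
UHRF1 first window, chr19:4909251-4909550, plus strand: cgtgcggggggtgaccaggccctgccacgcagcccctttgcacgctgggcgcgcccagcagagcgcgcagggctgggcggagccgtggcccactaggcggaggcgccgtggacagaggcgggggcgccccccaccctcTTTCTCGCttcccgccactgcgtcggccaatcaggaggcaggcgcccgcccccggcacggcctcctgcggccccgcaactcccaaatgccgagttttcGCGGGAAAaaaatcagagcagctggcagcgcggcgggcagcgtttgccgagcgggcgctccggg
UHRF1 second window, chr19:4909894-4910193, plus strand: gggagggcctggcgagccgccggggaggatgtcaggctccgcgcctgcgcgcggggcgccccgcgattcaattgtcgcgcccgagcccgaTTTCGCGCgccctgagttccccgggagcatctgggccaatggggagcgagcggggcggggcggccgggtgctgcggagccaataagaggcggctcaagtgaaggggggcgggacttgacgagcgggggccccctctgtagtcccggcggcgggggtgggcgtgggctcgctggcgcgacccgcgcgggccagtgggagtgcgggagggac
TET2 first window, chr4:105145625-105145924, plus strand: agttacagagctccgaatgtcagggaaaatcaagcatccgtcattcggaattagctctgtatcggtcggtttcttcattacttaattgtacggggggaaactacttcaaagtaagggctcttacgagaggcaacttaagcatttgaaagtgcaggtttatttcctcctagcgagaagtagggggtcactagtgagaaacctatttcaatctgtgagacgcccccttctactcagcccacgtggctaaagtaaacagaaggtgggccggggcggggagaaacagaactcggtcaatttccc
The windows of DNMT1 and UHRF1 are dense in CpG, the dinucleotide that these enzymes act on. Sites numbered 30 in the DNMT1 window, 36 and 40 in the UHRF1 windows shown and 13 in the TET2 window shown. The second TET2 window, not printed, held 35, and the median over all windows was 14. Other windows not printed held 45 and 33 for TET3, 18 to 46 for DNMT3A, 22 for TDG and 6 to 11 for TET1. High counts were therefore not particular to DNMT1 and UHRF1. The single DNMT3B window held 3. It lies inside the annotated gene, as do the DNMT1 and UHRF1 windows shown. Whether the matches are bound, and whether the CpG sites are methylated, was not measured.

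Among the de novo writers, DNMT3B (chromosome 20, 32762385 to 32809356, plus strand) had 2395, 2112, 3426, 2569 and 3405 normalized counts in chrX-KO replicates 1 to 5, against 2164, 4740.3, 8415 and 4232 in chrX-ctrl replicates 1 to 4. Controls 2, 3 and 4 lay above every knockout library, and control 1 lay within the knockout range. The log2 fold change was -0.68 (SE 0.35, 95% interval -1.45 to 0.094, limma adjusted p = 0.65). The authors' deposited table gives -0.81 with an adjusted p of 0.35. Leaving out control 1 gave -1.02 and leaving out control 3 gave -0.36, without a call in either fit.

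DNMT3A (chromosome 2, 25227855 to 25342590, minus strand) had 736, 741, 762, 595 and 806 normalized counts in chrX-KO, against 716, 795, 1059 and 704 in chrX-ctrl. Control 3 was highest, knockout 4 lowest, and the rest lay within a narrow band. Its log2 fold change was -0.16 (SE 0.16, 95% interval -0.51 to 0.20, limma adjusted p = 0.82).

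DNMT3L (chromosome 21, 44246339 to 44262216, minus strand), the cofactor of the de novo enzymes that is prominent in germ cells and naive stem cells, was the least counted member. It had 31.6, 10.1, 2.33, 5.23 and 6.63 normalized counts in chrX-KO, against 19.1, 59.0, 29.2 and 6.32 in chrX-ctrl, resting on 2 to 38 reads per library. Control 2 was highest, the other 3 controls lay within the knockout range, and knockout 1 stood above the other knockouts. The log2 fold change of -1.34 (SE 0.76, 95% interval -3.04 to 0.35, limma adjusted p = 0.69) was the largest among the 9 in size and the least precise. Naive pluripotency markers, summed, stood at 517 and 541 in knockouts 1 and 2, at 148 to 324 in the other knockouts, and at 275 to 568 in controls. Most of the sum in knockouts 1 and 2 was KLF4, at 385 and 410. KLF4 stood at 33.9 to 222 in the other knockouts and 112 to 381 in controls. KLF17, a defining naive marker, had at most 1 read in any library. DPPA5, on the same list, had 0 to 4.42 normalized counts in chrX-KO and 5.31 to 34.6 in chrX-ctrl. It rested on 0 to 38 reads and was not among the tested rows. DPPA3 had 3.49 to 25.1 in chrX-KO and 10.6 to 23.7 in chrX-ctrl. The part of naive cells in DNMT3L was not tested.

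Of the maintenance pair, DNMT1 (chromosome 19, 10133345 to 10231286, minus strand) had 1175, 976, 1191, 1120.4 and 1182 normalized counts in chrX-KO, against 689, 1440.3, 1884 and 1119 in chrX-ctrl. The 5 knockout libraries fell between the lowest and the highest control and spanned 1.22-fold, whereas the controls spanned 2.74-fold. The log2 fold change was -0.095 (SE 0.26, 95% interval -0.67 to 0.48, limma adjusted p = 0.92).

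UHRF1 (chromosome 19, 4903080 to 4962154, plus strand) had 203, 159, 312, 204 and 402 normalized counts in chrX-KO, against 59.5, 362, 677 and 260.1 in chrX-ctrl. The controls spanned 11.4-fold and enclosed all 5 knockout libraries, which spanned 2.53-fold. Its log2 fold change was -0.041 (SE 0.61, 95% interval -1.40 to 1.32, limma adjusted p = 0.99). The value was -0.72 without control 1 and 0.44 without control 3. Fits on reads gave more negative values, -0.34 in edgeR and -0.41 in the authors' deposited table, without a call.

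Among the erasers, TET1 (chromosome 10, 68560656 to 68694482, plus strand) had 659, 601, 801, 707 and 656 normalized counts in chrX-KO, against 683, 635, 729 and 784 in chrX-ctrl. The 9 values interleaved, and the control coefficient of variation, 8.97%, was the lowest of the 9 genes. The log2 fold change was -0.050 (SE 0.13, 95% interval -0.34 to 0.24, limma adjusted p = 0.92), an interval of 0.790 to 1.18 as a fold.

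TET2 (chromosome 4, 105145875 to 105279816, plus strand) had 74.7, 73.3, 87.3, 83.0 and 81.1 normalized counts in chrX-KO, against 81.8, 48.2, 40.1 and 60.5 in chrX-ctrl. It was the only member with a higher mean in the knockout clone. Controls 2, 3 and 4 lay below every knockout library and control 1 lay among them. The log2 fold change was 0.51 (SE 0.22, 95% interval 0.022 to 1.00, limma adjusted p = 0.56), and it is the 1 member counted above at an unadjusted p under 0.05. The direction was upward in all 19 alternative fits, with the lowest adjusted p at 0.26 without control 1. The authors' deposited table gives 0.47 with an adjusted p of 0.54.

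TET3 (chromosome 2, 73986404 to 74108176, plus strand) had 91.0, 98.1, 92.0, 93.4 and 111 normalized counts in chrX-KO, against 73.3, 115, 162 and 106 in chrX-ctrl. The knockout values lay inside the control range (log2 fold change -0.18, SE 0.22, limma adjusted p = 0.84).

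TDG (chromosome 12, 103965804 to 103988874, plus strand) had 492, 520, 602, 431 and 606 normalized counts in chrX-KO, against 427, 719, 876 and 439 in chrX-ctrl. Here too the controls enclosed the knockouts (log2 fold change -0.16, SE 0.24, limma adjusted p = 0.87).

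Over the list, 8 of 9 genes had a negative log2 fold change, against 49% of all tested rows and 63.4% of tested protein-coding rows, and the median was -0.16, against 0.0097 over all rows and -0.092 over protein-coding rows. DNMT1, UHRF1 and TET1 turned positive when each library was centred on its median protein-coding gene or quantile normalized, UHRF1 also with TMM scaling. Without control 3, the values of DNMT1, UHRF1, TET3 and TDG turned positive as well.

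**Figure D2:**
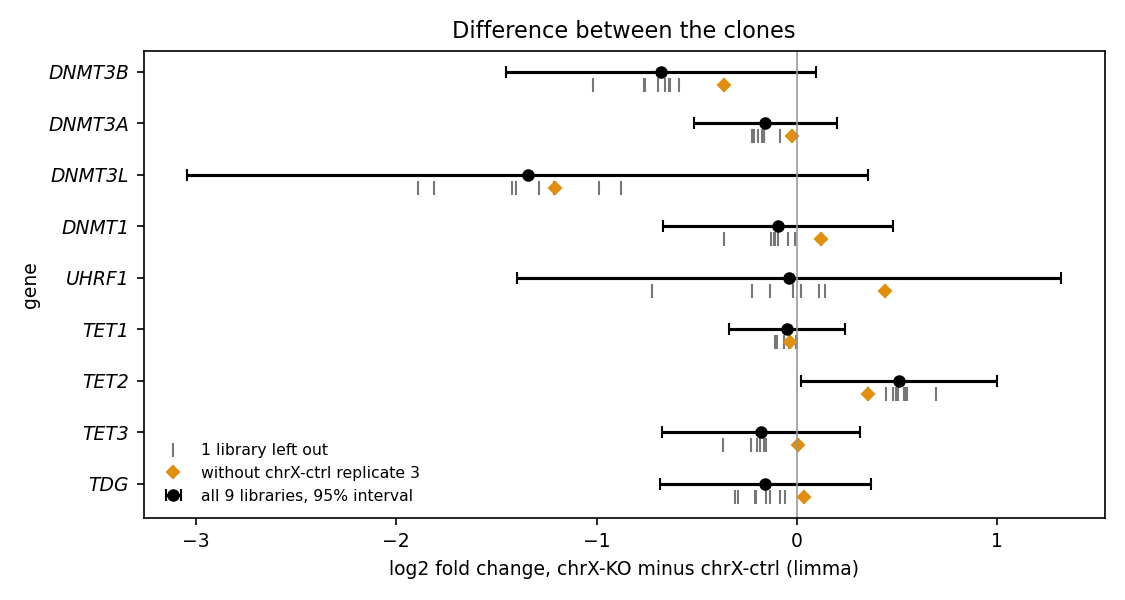
Limma log2 fold change (chrX-KO minus chrX-ctrl) of each gene with its 95% interval over 9 libraries in black. Grey ticks are fits with 1 library left out and orange diamonds the fit without chrX-ctrl replicate 3; the interval of TET2 alone lies above 0 (0.022 to 1.00), before adjustment.

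Set on a common scale of normalized counts per kilobase of merged exon, DNMT3B was the most abundant, at 601 ± 130 in chrX-KO (SD, n = 5) and 1056 ± 562 in chrX-ctrl (SD, n = 4). It stood 6.57 times above the next gene on average and first in 9 of 9 libraries. DNMT1 followed at 115 ± 9.16 in chrX-KO and 131 ± 51.6 in chrX-ctrl, and TDG at 108 ± 15.3 in chrX-KO and 126 ± 44.9 in chrX-ctrl; their ranges overlapped, and DNMT1 was the higher in 5 of 9 libraries. TET1 averaged 73.7 ± 8.08 in chrX-KO and 76.2 ± 6.84 in chrX-ctrl, below TDG in every library. Next came DNMT3A, at 60.5 ± 6.59 in chrX-KO and 68.1 ± 13.8 in chrX-ctrl, its range overlapping that of TET1. UHRF1 followed, at 49.8 ± 19.3 in chrX-KO and 66.0 ± 50.1 in chrX-ctrl. Its range overlapped that of DNMT3A, but UHRF1 exceeded DNMT3L in 9 of 9 libraries. At the bottom DNMT3L averaged 6.02 ± 6.32 in chrX-KO and 15.3 ± 12.1 in chrX-ctrl, TET3 7.91 ± 0.656 in chrX-KO and 9.29 ± 3.00 in chrX-ctrl, and TET2 4.85 ± 0.355 in chrX-KO and 3.50 ± 1.10 in chrX-ctrl. TET3 exceeded TET2 in 9 of 9 libraries, while DNMT3L and TET3 changed places between libraries. TET1 made up 85.2% ± 1.46 of the summed TET level in chrX-KO and 85.6% ± 1.88 in chrX-ctrl. Exon length came from GENCODE 29 and not from the transcripts used in counting, and gene rows hide isoforms.

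Ratios within a library do not depend on its scaling. The level of DNMT3B over that of DNMT1, per kilobase, was 4.31, 4.58, 6.08, 4.85 and 6.09 in chrX-KO replicates 1 to 5, against 6.65, 6.96, 9.45 and 8.002 in chrX-ctrl replicates 1 to 4. All 5 knockout libraries lay below all 4 controls, with means of 5.18 ± 0.848 in chrX-KO (SD, n = 5) and 7.77 ± 1.26 in chrX-ctrl (SD, n = 4). This was the single ratio of 11 computed whose groups did not overlap, and as it was picked from among them it is given without a test. DNMT3B over DNMT3A averaged 9.94 ± 1.89 in chrX-KO and 14.9 ± 5.27 in chrX-ctrl, with control 1 at 7.85 among the knockouts. UHRF1 over DNMT1 ran from 0.310 to 0.647 in chrX-KO and from 0.165 to 0.684 in chrX-ctrl. TET2 took 5.35% to 5.82% of the summed TET level in chrX-KO libraries, against 5.88%, 3.62%, 2.59% and 3.80% in chrX-ctrl replicates 1 to 4. The knockout shares were tight, and control 1 again differed from the other controls.

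**Figure D3:**
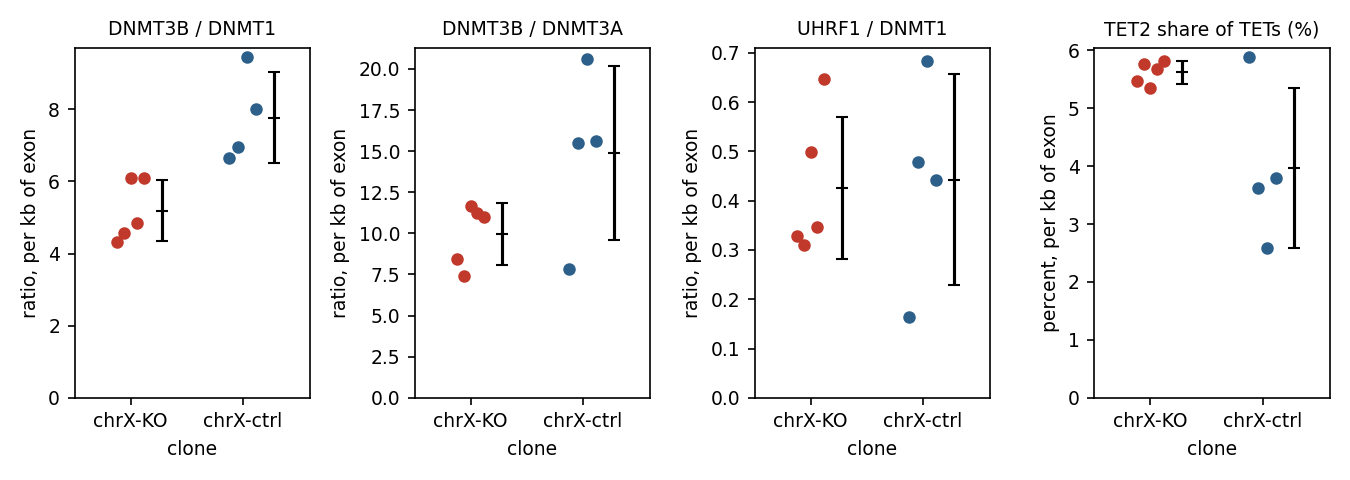
Within-library ratios of levels per kilobase of exon, 1 point per library, with mean and SD beside each group, chrX-KO left of chrX-ctrl. The groups are apart for DNMT3B over DNMT1 (highest chrX-KO library 6.09, lowest chrX-ctrl library 6.65) and overlap in the other 3 panels.

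The spread of these genes differed by clone: on the log2 scale the SD was higher in chrX-ctrl for 8 of 9 genes, with a median of 0.17 in chrX-KO and 0.52 in chrX-ctrl. Most of the transcriptome did the same, with a higher SD in chrX-ctrl for 80.5% of the 11677 protein-coding genes averaging 50 normalized counts or more (median 0.25 in chrX-KO and 0.39 in chrX-ctrl). After centring, the counts were 7 of 9 genes and 75.6%.

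To compare profiles across libraries, log2 levels were centred on the median protein-coding gene of each library. Control 1 then lay lowest of all 9 libraries for DNMT1, UHRF1, TET3 and TDG (UHRF1 -1.99 from its mean), and control 3 highest for UHRF1 (1.08), DNMT1 (0.32), DNMT3B (0.94) and TET3 (0.28). TET2 had its lowest value in control 3 (-1.13). Across the 9 libraries DNMT1 and UHRF1 had the highest correlation of the 36 pairs (Pearson r = 0.94, Spearman rho = 0.87, and r = 0.62 without the 2 libraries farthest from the median of DNMT1). Removing each clone's mean left r at 0.94 for this pair and gave 0.98 for DNMT3B with UHRF1 and 0.91 for DNMT3B with DNMT1. DNMT3B and TET2 had the lowest value, r = -0.75 (rho = -0.52). These libraries share clones and passages, so the values are descriptions without a test. The proliferation list, 20 genes such as MKI67 and MCM2, summed without centring to 22490 to 31359 in chrX-KO. In chrX-ctrl this sum was 19601 (control 1) to 40787 (control 3). Its centred median ran from -0.16 to 0.19 in chrX-KO and from -0.39 (control 1) to 0.33 (control 3) in chrX-ctrl. That median correlated with UHRF1 at r = 0.93, with DNMT3B at 0.84 and with DNMT1 at 0.82. Other lists had similar values: the partners of the writers reached 0.84 with UHRF1 and 0.83 with DNMT3B. Base excision repair reached -0.90 with TET1. The embryonic stem cell markers were also highest in control 3 and correlated with TET2 at r = -0.87. The part of any of these lists in the members' values was not tested.

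**Figure D4:**
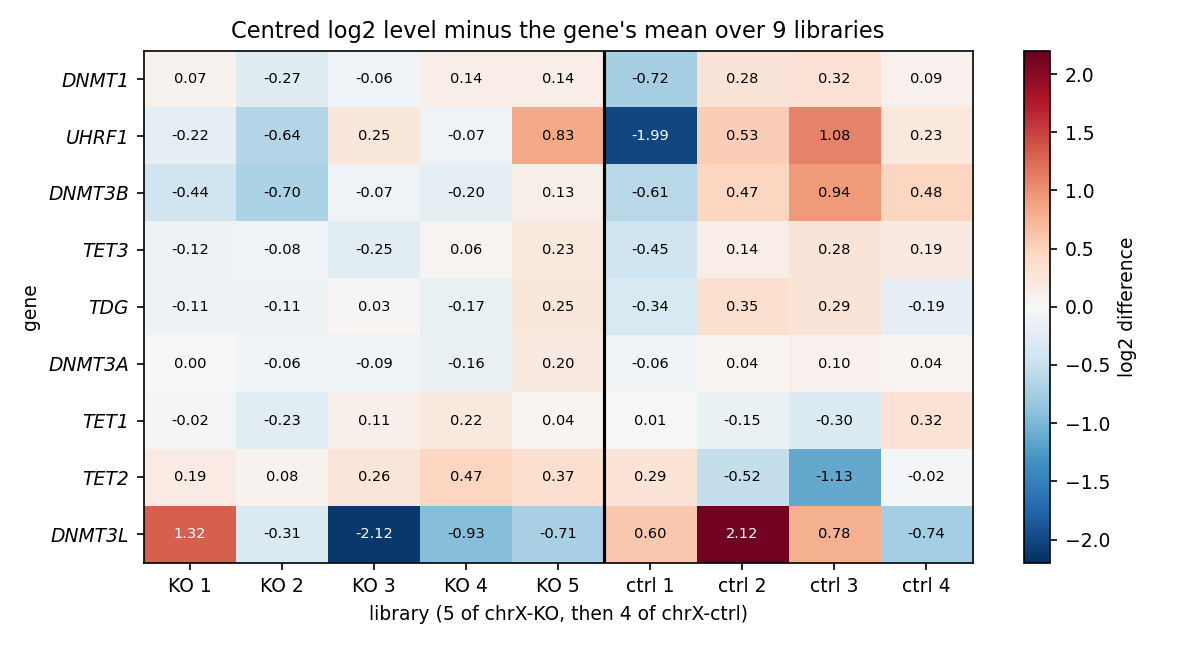
Centred log2 level of each gene minus its mean over the 9 libraries, chrX-KO columns left of the line and chrX-ctrl columns right of it. In the first 5 rows chrX-ctrl replicate 1 is low (UHRF1 -1.99) and replicate 3 high (UHRF1 1.08), and TET2 is lowest in replicate 3 (-1.13).

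For each member the 3 protein-coding genes with the most similar centred profile were taken from 11669 candidates over the 9 libraries. DNMT1 was closest to TNFRSF1A, NAT10 and SRSF1 (r = 0.98, 0.97 and 0.96), and UHRF1 to SRCAP, SCFD2 and SUOX (r = 0.98 each). DNMT3B was closest to FERMT1, PINX1 and EBNA1BP2 (0.98, 0.98 and 0.97), DNMT3A to BRPF3, WDR45 and DTNBP1 (0.91, 0.88 and 0.88), and DNMT3L to RGS14, NNAT and CYP2S1 (0.91, 0.91 and 0.89). TET1 was closest to TAF1B, EHMT1 and ATPSCKMT (0.95, 0.95 and 0.94), TET2 to LRRC7, METTL15 and PPWD1 (0.98, 0.98 and 0.97), TET3 to NIBAN1, MINK1 and MAST3 (0.97, 0.96 and 0.95), and TDG to TIMMDC1, RNF25 and EIF4G2 (0.97, 0.96 and 0.96). Such matches were common: 169 candidates passed r = 0.9 with TET2 and 136 with UHRF1, but 1 with DNMT3A and 2 with DNMT3L. None of the 27 passed the test between the clones (lowest limma adjusted p = 0.455, CYP2S1).

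Among the genes around these enzymes, germline genes known to be kept silent by promoter methylation in somatic cells held the only limma calls in the 8 pathway lists. Of the 20 listed, 10 were tested, 2 fell, 0 rose and 7 had a negative value, while 0.425% of all tested rows were called lower in limma. The list was chosen with earlier results of these data known, so its count of calls cannot be read as an enrichment. Their median log2 fold change was -0.15. SOHLH2, a transcription factor of early germ cells, had 51.9 ± 7.48 normalized counts in chrX-KO (SD, n = 5) and 121 ± 16.4 in chrX-ctrl (SD, n = 4), a log2 fold change of -1.21 (SE 0.18, limma adjusted p = 0.019). DPEP3, a dipeptidase made in testis, had 26.7 ± 12.6 in chrX-KO and 113 ± 39.1 in chrX-ctrl (-2.07, SE 0.35, limma adjusted p = 0.035). Neither gene had overlap between the clones, which held for 3.95% of all rows. DESeq2 called both lower (adjusted p = 2.4e-06 for SOHLH2 and 1.9e-05 for DPEP3, where 1.62% of rows were called lower). EdgeR called both as well (0.037 and 0.049), as does the authors' deposited table (6.3e-08 and 6.8e-06). Both missed the threshold with the replicate block (limma adjusted p = 0.16 for SOHLH2 and 0.17 for DPEP3), and DPEP3 also after quantile normalization (0.061). SOHLH2 lost its call without knockout 3, 4 or 5 or control 1 or 3 (limma adjusted p up to 0.066). DPEP3 kept its call only without knockout 2 or control 4 among the 9 such fits (limma adjusted p up to 0.11). Other members did not pass, among them DAZL (0.20) and TEX15 (-0.30), and DDX4, MAEL and HORMAD1 had 7 reads or fewer in every library.

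Partners of the writers gave 0 calls in 14 tested (11 negative, median -0.17). HELLS, a remodelling ATPase needed in mouse for methylation of repeats, had the smallest p, with 2510 ± 117 in chrX-KO and 3593 ± 418 in chrX-ctrl and no overlap (log2 fold change -0.51, SE 0.13, limma adjusted p = 0.17). DESeq2 called it lower (adjusted p = 0.00036, where 1.62% of rows were called lower), as does the authors' deposited table (0.00042), and edgeR did not (0.22). UHRF2, the paralogue of UHRF1, was picked after its values were seen. It had 699 ± 34.0 in chrX-KO and 553 ± 44.9 in chrX-ctrl without overlap (0.34, SE 0.11, limma adjusted p = 0.38), and the authors' deposited table calls it higher (adjusted p = 0.023). It was not called by DESeq2 (adjusted p = 0.14), edgeR (0.33) or limma with the replicate block (0.36).

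The remaining 6 pathway lists had 0 calls in limma. The histone methylation enzymes and readers that guide DNMT3 enzymes had a median of 0.080 (log2 fold change, 14 genes tested), with KMT2A at 0.35. Methyl-CpG readers had 0.010 over 11, with ZNF445, which protects imprints, at 0.26. TET partners and cofactor supply had 0.013 over 12, with the pluripotency factor PRDM14 at -0.58. Base excision repair had -0.052 over 12, with the glycosylase NEIL1 at 0.53. The one-carbon and S-adenosylmethionine cycle, which supplies the methyl groups, had -0.12 over 18, with GNMT at -0.86. Proliferation genes had -0.10 over 20, with MCM6 at -0.49. The genes named are those with the smallest p in their list, with limma adjusted p between 0.29 and 0.68. After quantile normalization the medians of the partner, repair, one-carbon and proliferation lists were above 0, at 0.036, 0.040, 0.035 and 0.076.

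**Figure D5:**
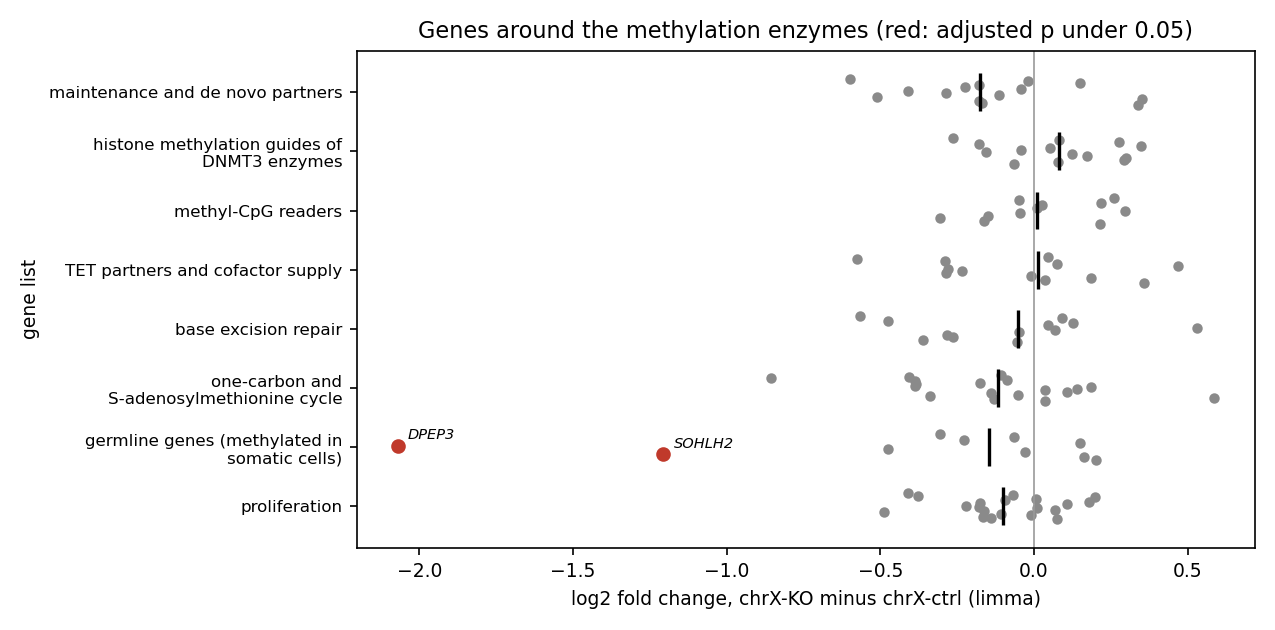
Limma log2 fold change (chrX-KO minus chrX-ctrl) of each tested gene in 8 lists around the methylation enzymes, with a black bar at each median. The 2 red points, DPEP3 (-2.07) and SOHLH2 (-1.21), passed an adjusted p of 0.05, and the medians lie between -0.17 and 0.080.

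Rows that could share reads with the members were few. Exons of DNMT1 overlap 83 bases of S1PR2 (0.85% of its merged exons), and exons of DNMT3L overlap 241 bases of an antisense gene (13.0%) that averaged 2.38 normalized counts in chrX-KO and 1.83 in chrX-ctrl. The pseudogenes DNMT3AP1 and TDGP1 had 0 reads in every library, and TET1P1 had at most 4.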

How the data were processed

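The submitters' processing notes name build hg38 and the tools fastp, kallisto and DESeq2. Libraries came from a stranded kit, per the labels. Tool versions, annotation release and strand use in counting were not given in the sources used here. Signal columns, as deposited, hold gene counts that the authors divided by a size factor per library. Within a tolerance of 1e-06, 100% of values were whole multiples of what 1 read is worth in that library (taken as its lowest nonzero value), and division gave whole reads. The deposited table also holds the authors' log2 fold changes, test scores and p-values.

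The model was limma 3.58.1 with trend (R 4.3.3), fitted to log2(value + 1) of all 9 libraries with clone as its single term. Differences on this scale understate changes of genes with few reads. EdgeR's filterByExpr (minimum count 10) kept 27777 rows, and p-values were adjusted by Benjamini-Hochberg over all of them, with a threshold of 0.05. EdgeR 4.0.16 and DESeq2 1.42.0 on the recovered reads were alternatives, and edgeR called 151 rows. The scripts were tested on simulated data. Positions and exons came from GENCODE 29 (GRCh38), matched on Ensembl ID without version.

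Replicate numbers stand under a batch tag in the labels, so same-numbered libraries were taken as paired. This is an assumption, as the design text describes successive passages. The correlation of their deviations was 0.067, 0.023, 0.25 and 0.33 in the 4 pairs. The block was an alternative, in which knockout 5 has no partner.

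Named genes are the 9 members, the marked rows, up to 4 called members of each of 15 lists or else the one with the smallest p, and the 3 genes most alike in profile. UHRF2, DAZL, TEX15, DDX4, MAEL, HORMAD1, KLF4, KLF17, DPPA5, DPPA3, SOX17 and FOXA2 fall outside this rule and were named after their values were seen. Members and lists were chosen with earlier results of these data known.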

Additional observations from a re-analysis of the deposited data

Results flagged for a closer look

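DNMT3L in chrX-KO replicate 1, at 31.6 normalized counts, lay far above the other 4 knockout libraries (2.33 to 10.1) by Dixon's test for an outlying sample. It was the only flag in 44 groups of library values examined, where chance flags about 1 in 20 groups. The value rests on 33 reads.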

How the results depend on the processing

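None of the 9 genes passed in any of the 19 alternative fits. The count of all rows called, 150, was 43 under the replicate block and 593 by DESeq2, and ran from 79 to 186 with 1 library left out. It was 95 without knockout 2, 79 without knockout 4, 80 without knockout 5, 93 without control 1, 80 without control 2 and 94 without control 3. The block changed no member's call.

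DNMT3B, DNMT3L, DNMT3A and TET2 did not change sign in the fits that tested them (19 for each, except 18 for DNMT3L, which a mean of at least 50 normalized counts removed), but their size did. DNMT3A was -0.027 without control 3 and -0.019 after quantile normalization, so close to 0. With 1 library left out DNMT3L ran from -1.89 (without control 4) to -0.88 (without control 2), DNMT3B from -1.02 to -0.36 and TET2 from 0.36 to 0.69. With 1 library left out UHRF1 ran from -0.72 to 0.44, DNMT1 from -0.36 to 0.12, TET1 from -0.11 to 0.00020, TET3 from -0.37 to 0.0078 and TDG from -0.31 to 0.036 on the log2 scale. Centring on the median protein-coding gene, under which the median of all rows was 0.12 in place of 0.0097, gave 0.011 for DNMT1, 0.065 for UHRF1 and 0.055 for TET1. Quantile normalization gave 0.10, 0.086 and 0.061, and TMM scaling gave 0.0054 for UHRF1. The cause was not tested. Depth limits DNMT3L (2 to 38 reads) and TET2 (31 to 111 reads) most.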

Other observations

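Marker lists of cell states gave 0 calls in limma. Embryonic stem cell markers had a median of -0.34 (log2 fold change, 10 genes tested), with TDGF1, a NODAL coreceptor, at -0.92 (limma adjusted p = 0.39). Naive markers had -0.50 over 7, with KLF5 at -0.85, and primed markers -0.14 over 10, with FAT3 at -0.63. Neural markers had -0.51 over 4, with MAP2, a neuronal microtubule protein, at 0.58, and fibroblast markers -0.0086 over 3, with COL1A1 at -0.78. MIXL1 was the single mesendoderm marker tested (-0.71). In the trophectoderm and amnion list 2 were tested, and TFAP2C, a transcription factor also active in germ cells and naive stem cells, had 30.5 ± 11.5 normalized counts in chrX-KO (SD, n = 5) and 95.9 ± 36.4 in chrX-ctrl (SD, n = 4) without overlap of libraries. Its log2 fold change was -1.61 (limma adjusted p = 0.11). It passed in 1 of 9 fits with a library removed (0.048 without control 4, at most 0.31 in the others), and not with the replicate block (0.15), edgeR (0.12) or quantile normalization (0.14). DESeq2 called it lower (adjusted p = 0.0022). MAP2 had 184 to 299.8 normalized counts in chrX-KO and 141 to 170.5 in chrX-ctrl without overlap (limma adjusted p = 0.25), and both DESeq2 (0.0497) and the authors' deposited table (0.043) call it higher. Without control 3 the medians were -0.15 for embryonic stem cell, 0.046 for primed and -0.28 for neural markers. Quantile normalization gave -0.056 for embryonic stem cell and 0.087 for primed markers. The neural median was 0.048 over all markers with at least 1 read, and the fibroblast median was -0.40 over rows averaging 50 or more normalized counts and 0.097 after centring.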
